A study of Mus musculus with 4 samples.

Results

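In single-nucleus RNA sequencing (snRNA-seq) of mouse brain, 1153 of 52132 quality-controlled nuclei (2.21%) met a marker rule written to collect near-projecting neurons of cortical layer V. The rule took nuclei with at least 1 transcript of Slc17a7, which encodes the main vesicular glutamate transporter of cortical excitatory neurons, none of Gad1 or Gad2, the enzymes that make GABA, at least 3 of Tshz2 and at least 1 of Vwc2l. It also asked for 0 transcripts of Syt6, Rspo1, Ctgf and Rxfp1 and at most 1 of Tcf7l2, genes of layer VI, upper-layer, layer VIb and thalamic neurons. Transcripts were counted as unique molecular identifiers (UMIs), and the measured values of these 10 genes chose the members, so none of them was tested. The label held for 320 of the 1153 nuclei, those of a group that carried further markers of these neurons, and the population is therefore called Tshz2/Vwc2l nuclei.

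The study asked how reduced signalling through CSF-1R, the receptor on which microglia depend, bears on other brain cells. It compared 2-month-old female WT mice with Csf1r+/- mice (HET), which carry 1 disrupted Csf1r allele in every cell, both on a C57/BL6 background and untreated. Brains were perfused, nuclei were freed without detergent and myelin debris was depleted on beads, and 2 libraries of each genotype were used here, each from 1 mouse. Values are given for replicate 1 before replicate 2. The WT libraries held 250 and 307 Tshz2/Vwc2l nuclei, and the HET libraries 262 and 334. Summed over these nuclei, the depth was 2471524 and 2269017 UMIs in WT, and 3021874 and 3445035 UMIs in HET. WT replicate 2 stood apart from the other 3 libraries in mitochondrial, ribosomal and glial transcripts, and results that rest on it are given with and without it.

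Near-projecting neurons are excitatory cells of deep cortex whose axons stay close to the cell body, unlike extratelencephalic neurons, which reach subcortical targets, and intratelencephalic neurons, which link cortical areas. Tshz2 is a zinc-finger transcription factor of the teashirt family and Vwc2l encodes a secreted protein with von Willebrand factor C domains. The gene for Tshz2 lies on mouse chromosome 2 at 169633013 to 170071816 on the plus strand, and Vwc2l on chromosome 1 at 70725715 to 70885397 on the plus strand (build GRCm38). Tshz2 is also made by several other excitatory neurons, so its transcript alone does not name a cell type.

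The rule set a low bar for Vwc2l. The median nucleus held 16.5 and 13 Tshz2 UMIs in WT and 19 and 16 in HET, but only 3 and 3 Vwc2l UMIs in WT and 4 and 4 in HET. A single Vwc2l UMI admitted 21.6% and 27.4% of the WT members and 22.1% and 26.6% of the HET members. Just inside and just outside the Tshz2 threshold, the 45 members with 3 Tshz2 UMIs carried 400.2 CPM (UMIs scaled to the total of the summed nuclei) of Rorb and the 84 excluded nuclei with 2 UMIs carried 473 CPM. Slc17a8 was at 0 in both. At the Vwc2l edge, the 285 members with 1 UMI had 173 CPM of Nxph1 and 188 CPM of Rorb, and the 1410 nuclei that met the rest of the rule with 0 Vwc2l UMIs (Tshz2-only nuclei) had 89.5 and 177 CPM. Nuclei on either side of each edge thus carried similar levels of Rorb, a nuclear receptor typical of layer IV and intratelencephalic neurons.

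Beyond the genes of the rule, the 7 other markers of near-projecting neurons were all above the level of the other Slc17a7 nuclei, and the share of members with a UMI differed widely between them. Etv1, a transcription factor of layer V, was detected in 48.1% of members at 171 ± 12.8 CPM (SD, n = 4 libraries), against 54.7 ± 5.37 CPM in the other Slc17a7 nuclei without Gad1 or Gad2. Lypd1, which encodes a membrane-anchored modulator of nicotinic receptors, was at 49.0 ± 3.90 CPM against 13.0 ± 1.90 CPM. Trhr, the receptor for thyrotropin-releasing hormone, was detected in 14.0% of members and reached 21.9 ± 4.0 CPM against 3.37 ± 0.760 CPM. Slc17a8, an atypical vesicular glutamate transporter, was detected in 6.59% of members at 10.9 ± 2.41 CPM, against 0.722 ± 0.143 CPM. Fezf2, a master transcription factor of deep-layer projection neurons, was detected in 14.2% of members. These ratios describe nuclei picked for correlated genes and were not tested.

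Among genes found in at least 25% of members, the largest ratio to the other Slc17a7 nuclei belonged to Gm26883, a long noncoding RNA (log2 ratio 3.17, on the CPM + 1 scale). It lies on the minus strand inside the Tshz2 gene, on chromosome 2 at 169633646 to 169888503, and whether counting used strand is not given in the sources used here, so its reads and those of Tshz2 could not be told apart. Kcnip1, a subunit of A-type potassium channels, followed at 146 ± 39.2 CPM against 16.1 CPM, and Stard5, a sterol carrier, at 64.5 ± 12.7 CPM against 10.2 CPM. Nxph1, a secreted ligand of neurexins, was at 430.3 ± 88.2 CPM against 83.3 CPM. Serotonin receptors were among the leading genes: Htr2c was at 309 ± 10.6 CPM against 85.9 CPM, and Htr4 at 68.9 ± 7.65 CPM against 21.8 CPM. The kainate receptor subunit Grik1 was at 405 ± 72.8 CPM against 121 CPM. Chrm2, an inhibitory muscarinic receptor, was at 232 ± 20.9 CPM against 114 CPM, whereas Rorb was lower than in the other Slc17a7 nuclei, at 155 ± 75 CPM against 362 CPM. Gm26883, Htr2c and Htr4 were high in the Tshz2-only nuclei as well, at 601, 244 and 48.4 CPM. Kcnip1, Stard5, Nxph1 and Grik1 were lower there than in members, at 16.2, 10.8, 93.0 and 168 CPM.

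Clustering on genes outside the rule, and without the genes that passed the genotype test below, split the 1153 nuclei into 11 groups. Group 1 was the largest, with 320 nuclei (27.8%), and was the only one with 3 or more near-projecting markers outside the rule. It carried 6 of 7 (Slc17a8, Trhr, Lypd1, Rapgef3, Fezf2 and Etv1) at 2-fold or more over the remaining members, with Trhr and Slc17a8 among its 10 leading genes. Nxph1 led, with 1731 CPM and transcripts in 84.7% of group 1 nuclei, against 116 CPM in the other members. Slc17a8 stood at 47.7 CPM against 2.11 CPM, Trhr at 83.7 CPM against 6.88 CPM, and Etv1 at 439 CPM against 105 CPM. Cux2, a transcription factor of upper-layer neurons, was at 12.7 CPM against 134 CPM. Group 1 also carried 3 of the 6 corticothalamic markers at 2-fold or more. The 320 nuclei are called near-projecting-like. The other 833 nuclei (72.2%) did not meet the criterion, and the label of the population did not hold for them.

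**Figure D1:**
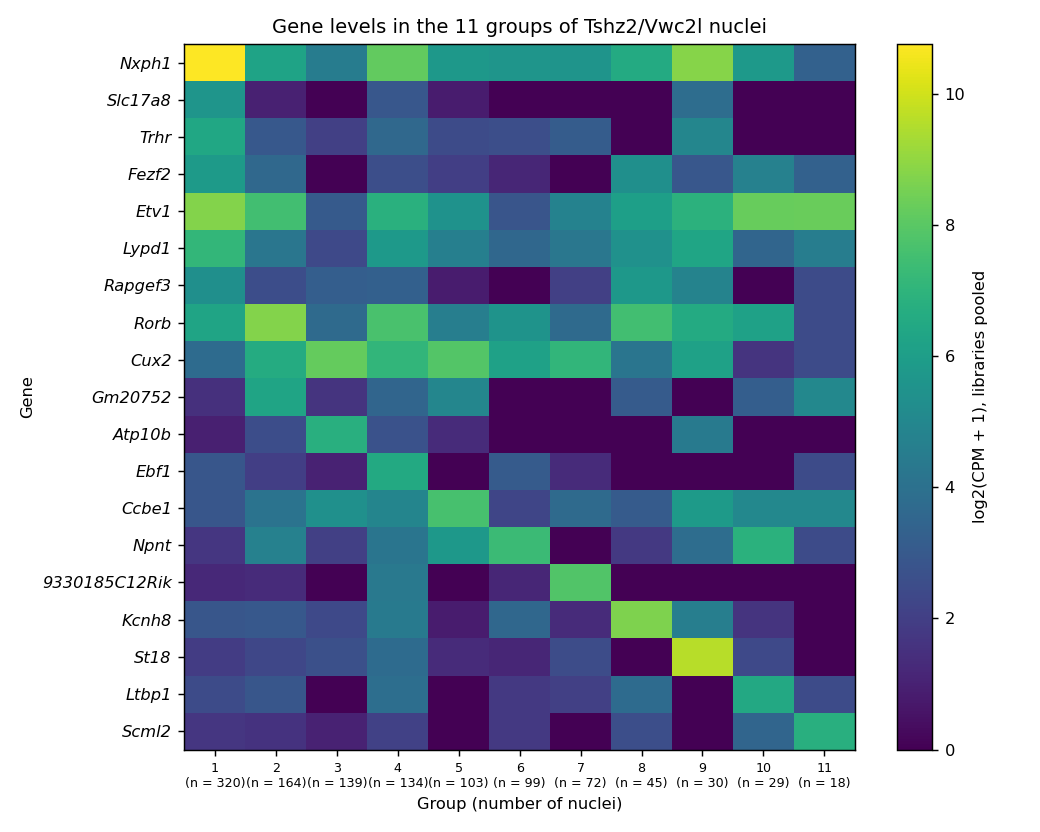
Levels of near-projecting markers, Rorb, Cux2 and the leading gene of each other group in the 11 groups of Tshz2/Vwc2l nuclei. Colour gives log2(CPM + 1) with libraries pooled, columns are groups with their number of nuclei, and rows are genes. Slc17a8, Trhr and Nxph1 are brightest in group 1, and Cux2 is dark there, at 12.7 CPM.

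The other 10 groups were set apart by unlike genes. They are given by number, with the markers of other classes that some of them carried. Group 2 (164 nuclei) was led by Gm20752, Ptprm and Rorb, with Rorb at 433 CPM, and group 3 (139 nuclei) by Atp10b, Kit and Mamdc2, with the highest Cux2 level, 295 CPM. Group 4 (134 nuclei) carried Ebf1, Zfhx3, Erbb4 and Adarb2, of which Erbb4 and Adarb2 are best known from interneurons, and 57.5% of its nuclei had high doublet scores (Scrublet). Group 5 (103 nuclei) carried 3 upper-layer markers, with Otof among its leading genes. Group 6 (99 nuclei) had Npnt and Cpa6 among its leading genes, and group 7 (72 nuclei) Wfs1 and Fn1, which were on the hippocampal list. Group 8 (45 nuclei) was led by Kcnh8 and Crybg1, with 2 near-projecting markers, group 10 (29 nuclei) by Ltbp1 and Kctd8, with 5 of the 6 markers of layer V extratelencephalic neurons, and group 11 (18 nuclei) by Scml2 and Thsd7a. Group 9 (30 nuclei) carried all 8 oligodendrocyte markers at 2-fold or more, and 96.7% of its nuclei had high doublet scores. Of its 30 nuclei, 18 came from WT replicate 2.

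A second count used no clustering. At least 1 UMI of Slc17a8, Trhr or Fezf2 was present in 313 of 1153 members (27.1%), and at least 1 of Cux2 or Rorb in 621 (53.9%). Both kinds were present in 128 nuclei, leaving 185 with the first kind alone, and neither was present in 347. The share with Slc17a8, Trhr or Fezf2 was 26.0% and 24.8% in WT and 34.7% and 24.3% in HET, so the genotypes overlapped. The near-projecting-like share was larger in members with more Tshz2, a gene of the rule. It was 13.1% of the 313 members with 3 to 9 Tshz2 UMIs, 29.6% of the 409 with 10 to 19, and 36.7% of the 431 with 20 or more. Median depth was 6290, 6502 and 10562 UMIs in these bins, and the part of depth in the order was not tested.

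Single genes of most receptor and guidance lists differed between the near-projecting-like nuclei and the other members, in both directions. These levels describe groups built from the same counts and were not tested. Of 8264 genes found in at least 10% of either set, 3.06% were 2-fold or more higher in near-projecting-like nuclei and 4.9% lower (on the CPM + 5 scale), with a median log2 ratio of 0.09. Of 15 genes for slits, robos, netrins and their receptors, 3 were higher (Dcc, Ntn1 and Slit1) and 7 lower. Dcc, an attractive netrin receptor, was at 4368 CPM in near-projecting-like nuclei and 1191 CPM in the other members, and Unc5c, a netrin receptor that mediates repulsion, at 144 and 588 CPM. Of 11 ephrin and Eph receptor genes, 0 were higher and 6 lower, Epha4 among them at 57.3 and 329 CPM. Of 18 semaphorin, plexin and neuropilin genes, 5 were higher, among them Sema3e at 194 and 38.6 CPM, and 2 lower.

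Transmitter receptor lists differed in how their members were split. Of 15 ionotropic glutamate receptor genes, 3 were higher in near-projecting-like nuclei, and 12 were within 2-fold. The kainate receptor subunits Grik1 and Grik3 were 2 of the 3, at 1244 and 201 CPM and at 527 and 112 CPM. Of 14 GABA receptor genes, 1 was higher, Gabrg3 at 2410 and 747 CPM, and 5 were lower. The summed level of that list was nonetheless higher in near-projecting-like nuclei in each library, at 6549 and 6435 CPM (WT) and 5932 and 6545 CPM (HET), against 5194 and 4601 CPM (WT) and 4820 and 4902 CPM (HET) in the other members. Of 12 monoamine and acetylcholine receptor genes, 4 were higher (Chrm2, Htr1f, Htr2c and Htr4) and 2 lower, among them Chrm3, an excitatory muscarinic receptor, at 186 and 787 CPM. Of 10 neuropeptide receptor genes, 2 were higher, Trhr and the orexin receptor Hcrtr2 (85.5 and 16.0 CPM), and 6 lower. Of 22 potassium and HCN channel genes, 1 was higher and 5 were lower, Kcnc2 among them at 46.4 and 249 CPM. Of 23 layer and projection transcription factors, 6 were higher, among them Bcl11b (282 and 51.2 CPM), Foxp2 (269 and 46.7 CPM) and Tle4 (719 and 126 CPM), and 5 lower.

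The make-up of the population was similar across libraries for the largest group. Near-projecting-like nuclei made up 24.4% and 29.6% of the members in WT and 28.6% and 27.8% in HET, so the genotypes overlapped. At a finer clustering resolution, 274 nuclei were near-projecting-like, all of them among the 320. Group 4 held 14.8% and 13.0% of the WT members and 9.16% and 9.88% of the HET members. Group 6 held 6.80% and 4.56% in WT and 9.16% and 13.2% in HET, and group 5 held 8.80% and 5.86% in WT and 12.2% and 9.28% in HET. The genotypes did not overlap in 6 of the 11 groups, with HET lower in groups 2, 4 and 10 and higher in groups 5, 6 and 11. Of the 6 ways to split 4 libraries into 2 and 2, 2 leave no overlap whatever the genotype. Group 10 held 7 and 9 nuclei in WT and 4 and 9 in HET, and group 11 held 3 and 3 in WT and 6 and 6 in HET. The groups were drawn after the data were seen, and their shares were not tested.

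**Figure D2:**
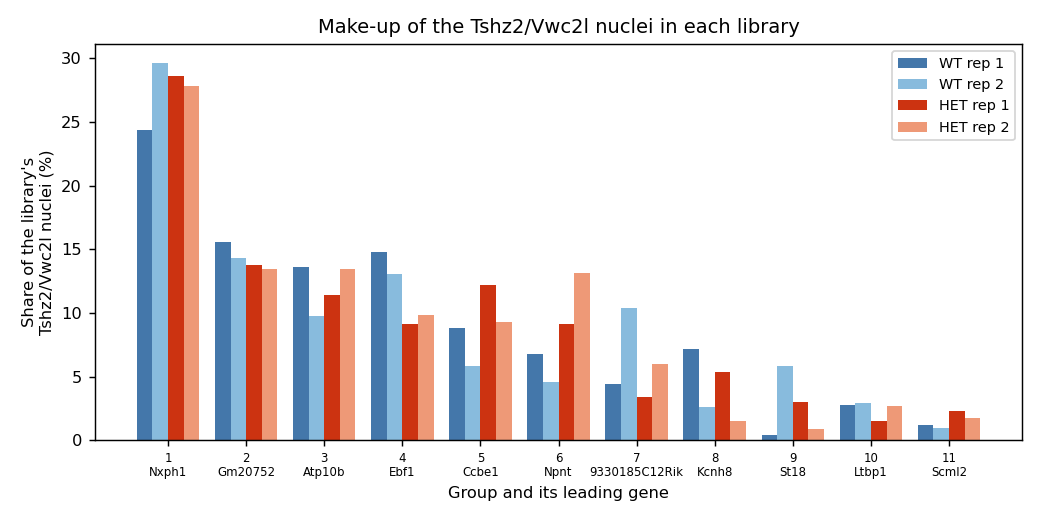
Share of each library's Tshz2/Vwc2l nuclei in each of the 11 groups, in percent, with 1 bar for each library and the leading gene under each group number. Group 1, the near-projecting-like nuclei, takes 24.4% to 29.6% in every library, and group 9 is tallest in WT replicate 2, at 5.86%.

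The first genotype comparison asked whether the population took a different share of the brain's nuclei. Tshz2/Vwc2l nuclei made up 1.55% and 2.01% of kept nuclei in WT (Wilson 95% intervals 1.37 to 1.75 and 1.80 to 2.25) and 2.73% and 2.99% in HET (2.42 to 3.08 and 2.69 to 3.32). The intervals cover counting error only. The mean was 1.78% ± 0.327 (SD, n = 2) in WT and 2.86% ± 0.18 in HET, without overlap, and an exact permutation test over the 4 libraries gave p = 0.333 (two-sided), the smallest that 2 libraries against 2 can give. HET libraries were deeper, with 7454 and 6656 median UMIs per kept nucleus against 5490 and 4636 in WT. After every nucleus was thinned to 3000 UMIs before the rule was applied, which left 12496 and 11104 kept nuclei in WT and 8208 and 9716 in HET, the share was 0.832% and 1.30% in WT and 1.06% and 1.31% in HET, and the genotypes overlapped (exact permutation p = 0.667). Of Slc17a7 nuclei without Gad1 or Gad2, the members were 4.73% and 6.10% in WT and 6.29% and 6.67% in HET.

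**Figure D3:**
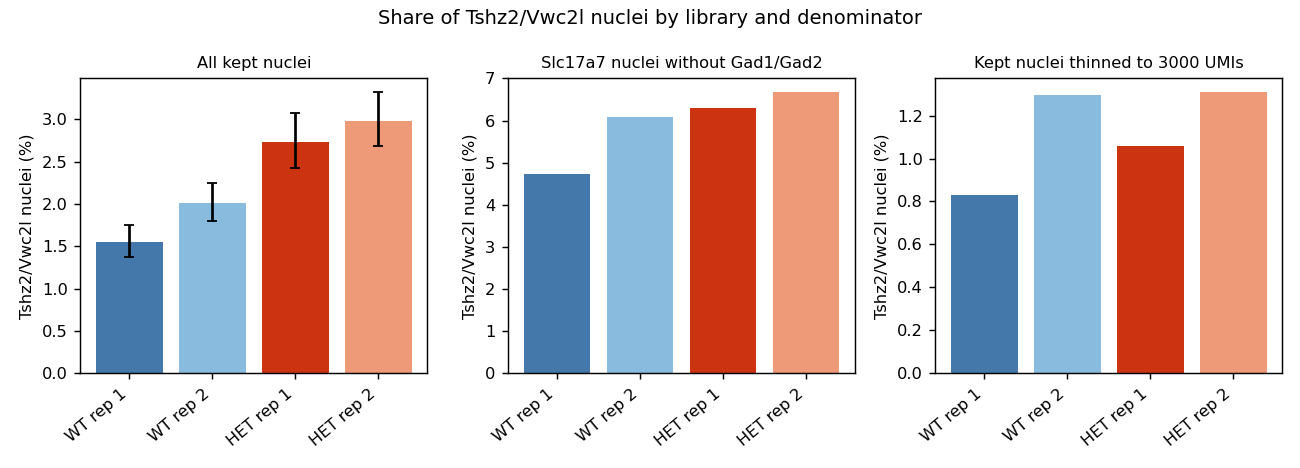
Share of Tshz2/Vwc2l nuclei in each library, in percent, of all kept nuclei (left, bars with Wilson 95% intervals), of Slc17a7 nuclei without Gad1 or Gad2 (middle) and of kept nuclei thinned to 3000 UMIs (right). HET bars are tallest on the left, at 2.73% and 2.99%, and overlap with WT on the right.

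Within the population, HET nuclei were also deeper. Median UMIs per nucleus were 7780 and 6379 in WT and 9455 and 8676 in HET, and median genes per nucleus were 2792 and 2545 in WT and 3160 and 2967 in HET (exact permutation p = 0.333 for both, two-sided, n = 2 per genotype). At 3000 UMIs per nucleus, which left out 18 and 26 shallower members in WT and 10 and 11 in HET, the medians were 1467 and 1555 genes in WT and 1498 and 1474 in HET. The median mitochondrial share of UMIs was 0.151% and 0.575% in WT and 0.240% and 0.141% in HET, with WT replicate 2 standing above the other libraries.

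Csf1r, the targeted gene, was as rare in these neurons as in other excitatory neurons, with 2 and 7 UMIs in WT and 11 and 16 UMIs in HET, or 0.809, 3.09, 3.64 and 4.64 CPM. In members both HET libraries lay above both WT libraries, from few UMIs and against the direction of a disrupted allele. The other Slc17a7 nuclei held 3.26 ± 1.77 CPM, in the same order. They had 0.817 and 3.12 CPM in WT against 4.53 and 4.58 in HET, from 38, 111, 213 and 210 UMIs. The order was the same in Tshz2-only nuclei, and the genotypes overlapped in corticothalamic nuclei. Csf1r is a gene of microglia, and its level in neurons gave no check of the genotype labels.

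The genotype comparison of expression summed the counts of each library's members and used edgeR's quasi-likelihood test. Of 8194 genes tested, 29 (0.354%) passed the study's threshold of an unadjusted p under 0.01, fewer than the 1% that the threshold alone would pass. Of these, 5 (0.061%) were higher and 24 (0.293%) were lower in HET. The study applied its threshold with edgeR's likelihood-ratio test, and with that test 59 genes passed here, 12 higher and 47 lower. At an adjusted p under 0.05, the edgeR test called 0 genes, and 171 were under an unadjusted p of 0.05. The likelihood-ratio test and DESeq2 each called 1 gene at an adjusted p under 0.05, Rorb in both, and DESeq2 put 21 genes under an unadjusted p of 0.01 (2 higher and 19 lower), 14 of them among the 29. The genotypes' libraries did not overlap in any of the 29 genes, which restates their choice by a small p in the same values. Over all genes tested they did not overlap in 26.3%. Of the 6 ways to split 4 libraries into 2 and 2, 2 leave no overlap whatever the genotype. The count rested on single libraries: 210 genes (2.55% of those tested) passed without WT replicate 1, 144 (1.74%) without WT replicate 2, of which 87 were higher and 57 lower, 19 (0.235%) without HET replicate 1 and 15 (0.179%) without HET replicate 2. In such a fit 1 genotype has a single library, which is assumed to vary like the other genotype's libraries, so passes and misses there show dependence on a library and are not further tests. Levels in the genotype comparisons below are TMM-scaled CPM (trimmed mean of M values), and those within groups, in other populations or summed over lists are scaled by totals.

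Rorb was the gene with the smallest p. Its level was 250.2 and 182 CPM in WT against 81.5 and 106 in HET. Both HET libraries lay below both WT libraries. The log2 change was -1.20 ± 0.19 (SE), a 2.30-fold lower level (adjusted p = 0.9999 by edgeR's quasi-likelihood test, as for each named gene). Rorb passed the unadjusted threshold in all 16 alternative settings, with log2 changes from -1.41 to -0.95. Scaled by totals, both HET libraries were below both WT libraries in 5 of the 11 groups (1, 2, 4, 9 and 10), both were above in group 7, where Rorb was rare, and the genotypes overlapped in the other 5. Rorb was at 93.2 and 118 CPM in WT against 49.4 and 61.0 in HET in group 1, at 651 and 582 against 206 and 331 in group 2, at 338 and 208 against 96.3 and 156 in group 4, and at 0 and 8.56 against 11.1 and 21.8 in group 7. In the other Slc17a7 nuclei of the same libraries Rorb was at 432 and 318 CPM in WT against 326 and 372 in HET, and the genotypes overlapped there. In layer VI corticothalamic nuclei, picked by Syt6 and Foxp2, Rorb was at 90.6 and 69.4 CPM in WT against 54.5 and 53.0 in HET. Both HET libraries were thus lower there too. Against the Tshz2-only nuclei, the difference between the log2 changes was -0.92 ± 0.11 (SE), with adjusted p = 0.00249 by edgeR's interaction term. Against the corticothalamic nuclei it was -0.64 ± 0.17 (adjusted p = 0.723, same test), and -0.26 ± 0.30 after thinning to 3000 UMIs. Rorb was singled out by its small p in the same Tshz2/Vwc2l sums, so these differences partly restate that choice.

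Adarb2, an RNA-editing regulator that marks a class of interneurons, was at 217 and 128 CPM in WT against 49.8 and 87.1 in HET. The HET values were the lower ones, by -1.33 ± 0.29 (SE) on the log2 scale, and Adarb2 did not pass without HET replicate 1 (log2 change -0.99) or with DESeq2. Without nuclei of high doublet score it passed, at -1.14. Most of its transcripts came from group 4, where it was at 787 and 450.2 CPM in WT against 175 and 342 in HET. In the other Slc17a7 nuclei Adarb2 was at 235 and 168 CPM in WT against 107 and 151 in HET. Both HET libraries were lower in the Tshz2-only and corticothalamic nuclei as well. Summed over the 9 inhibitory markers, members carried 422 and 453 CPM in WT against 318 and 172 in HET, Erbb4 being the most abundant, and the defining genes Gad1 and Gad2 were at 0 by the rule. That sum holds Adarb2 itself, and without it the other 8 markers came to 212 and 319 CPM in WT against 268 and 87.1 in HET, where the genotypes overlapped. The share of members with high doublet scores was 22.8% and 18.6% in WT against 11.5% and 17.4% in HET. The cut for a high score was itself set by library, from the number of its nuclei. It expected 12.9% and 12.2% of all kept nuclei in WT and 7.67% and 8.95% in HET. The order of the genotypes among members is therefore partly set by the cut, and no difference is drawn from it. The part of these markers in the result was not tested.

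Vav3, a guanine nucleotide exchange factor, was at 55.6 and 50.4 CPM in WT against 27.4 and 28.4 in HET (log2 change -0.92 ± 0.18, SE). Lin28b, which blocks maturation of let-7 microRNAs, was at 71.8 and 73.4 CPM in WT against 40.2 and 47.4 in HET (-0.73 ± 0.16). In near-projecting-like nuclei, which are part of these sums, Lin28b was at 90.5 and 114 CPM in WT against 43.0 and 51.1 in HET. Both HET libraries were also lower in groups 4 and 10, and the genotypes overlapped in the remaining groups. Reln, the secreted glycoprotein that guides neuronal layering, was at 80.6 and 55.4 CPM in WT against 39.6 and 41.5 in HET, with -0.75 ± 0.20 on the log2 scale. In group 4, where 57.5% of nuclei had high doublet scores, Reln was at 231 and 171 CPM in WT against 64.2 and 40.4 in HET. In group 1 it was at 38.4 and 19.9 CPM in WT against 6.37 and 7.10 in HET. Both HET libraries were lower in group 3 as well, from 0 to 3 UMIs a library. In every other group the genotypes overlapped or tied at 0 for Reln. Without nuclei of high doublet score its change was -0.28 and did not pass, nor did it without WT replicate 1 (-0.45), HET replicate 1 (-0.72) or HET replicate 2 (-0.79). Frmd4b, Arhgef28 and Zfp618 also passed in the lower direction, with log2 changes of -0.76, -0.87 and -0.78. Vav3, Frmd4b, Arhgef28 and Zfp618 were lower in both HET libraries in the other Slc17a7 nuclei and the Tshz2-only nuclei too. In the other Slc17a7 nuclei Vav3 was at 96.2 and 85.2 CPM in WT against 71.1 and 79.4 in HET. Lin28b overlapped in both populations, and Reln in the Tshz2-only nuclei. In corticothalamic nuclei Vav3, Lin28b, Reln and Frmd4b overlapped. Without nuclei of high doublet score Arhgef28 was at -0.56 and did not pass. Of the lower genes in this paragraph, Vav3 passed with each library left out in turn, but not with a rule of at least 2 Vwc2l UMIs, where its change was -0.55, and without HET replicate 1 the changes of Lin28b (-0.62), Frmd4b (-0.66), Arhgef28 (-0.71) and Zfp618 (-0.71) did not pass. Zfp618 also missed the threshold with DESeq2 and without WT replicate 1 (-0.71) or HET replicate 2 (-0.86).

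Of the 5 genes that were higher in HET, Wwc1, which encodes the memory-associated scaffold KIBRA, was at 69.8 and 75.1 CPM in WT against 125 and 96.6 in HET (log2 change 0.61 ± 0.16, SE). Gfod1 was at 119 and 121 CPM in WT against 173 and 159 in HET (0.47 ± 0.13). Nxph2, a relative of Nxph1, was at 7.52 and 6.71 CPM in WT against 15.8 and 13.0 in HET (1.01 ± 0.31). It met the detection filter through HET alone, with 18 and 16 UMIs in WT, so its pass partly restates the filter. With detection averaged over libraries Nxph2 was not tested. Tmem232 and Trabd2b, whose product cleaves Wnt proteins, had log2 changes of 0.89 and 0.51. None of the 5 passed with DESeq2, or with every library left out in turn. Without HET replicate 1 the changes of Wwc1 (0.41), Gfod1 (0.40) and Trabd2b (0.49) did not pass. Without WT replicate 1 those of Wwc1 (0.56), Gfod1 (0.45), Nxph2 (1.10) and Trabd2b (0.39) did not. Tmem232 missed the threshold without WT replicate 2 (0.74) or HET replicate 2 (0.66), Nxph2 without WT replicate 2 (0.95) or HET replicate 2 (1.14), and Gfod1 (0.52) and Trabd2b (0.51) without HET replicate 2. In near-projecting-like nuclei Wwc1 was at 118 and 108 CPM in WT against 131 and 104 in HET, so the genotypes overlapped there, as they did for Gfod1 and Tmem232. Trabd2b, at 137 and 125 CPM in WT against 170 and 159 in HET, and Nxph2, at 27.4 and 15.9 CPM in WT against 35.0 and 29.8 in HET, were higher in both HET libraries there, Nxph2 from 8 to 22 UMIs a library. After thinning to 3000 UMIs, 8 of the 17 named genes met the detection filter. Rorb (-1.12), Adarb2 (-1.35) and Gfod1 (0.65) passed, and Lin28b (-0.70), Frmd4b (-0.58), Arhgef28 (-0.73), Wwc1 (0.41) and Trabd2b (0.49) did not.

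**Figure D4:**
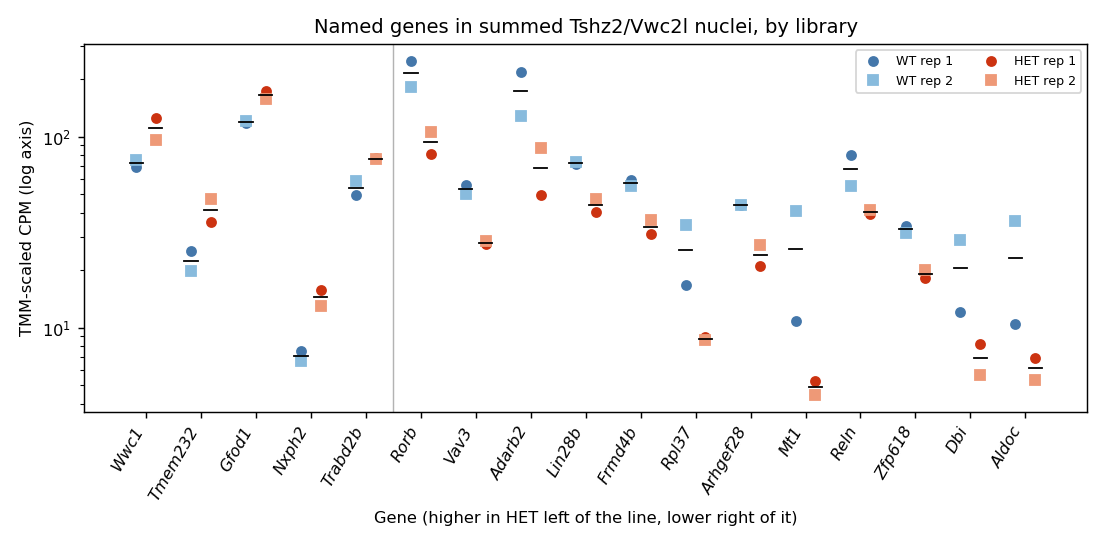
TMM-scaled CPM (log axis) of the 17 named genes in each library's summed Tshz2/Vwc2l nuclei, with WT in blue, HET in red, circles for replicate 1, squares for replicate 2 and lines at the genotype means. Rorb lies at 250.2 and 182 CPM in WT against 81.5 and 106 in HET, and Mt1, Dbi and Aldoc are highest in WT replicate 2.

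A further set of lower genes moved with WT replicate 2. Mt1, a metallothionein that binds zinc and copper, was at 10.9 and 40.7 CPM in WT against 5.28 and 4.44 in HET, from 26, 97, 16 and 15 UMIs. Its log2 change was -2.40 ± 0.58 (SE), and WT replicate 2 was far above each other library. Aldoc, a glycolytic enzyme of astrocytes, was at 10.4 and 36.1 CPM in WT against 6.93 and 5.33 in HET. Dbi, which encodes a ligand of benzodiazepine sites, was at 12.1 and 29.0 CPM in WT against 8.25 and 5.63 in HET, and Rpl37, a ribosomal protein gene, at 16.7 and 34.4 CPM in WT against 8.91 and 8.59 in HET. The pattern was not particular to these nuclei. In the other Slc17a7 nuclei Mt1 was at 11.3 and 39.1 CPM in WT against 6.77 and 5.72 in HET. Mt1, Aldoc, Dbi and Rpl37 were highest in WT replicate 2, and lower in both HET libraries, in the other Slc17a7, Tshz2-only and corticothalamic nuclei alike. Clu, Cst3, Sparc, Ndrg2 and Glul, picked out of the 29 genes after their values were seen because glia make them in abundance, also passed in the lower direction, with log2 changes from -1.64 to -1.19. They are no list, and of the listed glial markers 1 of 3 astrocyte (Aldoc), 0 of 2 oligodendrocyte and 0 of 2 microglial genes tested passed the unadjusted threshold, beside 0.354% of all genes tested. Mt1, Aldoc, Sparc, Ndrg2 and Glul met the detection filter through WT alone, where they were higher, so their passes partly restate the filter. Sparc and Glul were not tested with detection averaged over libraries. Without WT replicate 2, Mt1, Aldoc, Sparc, Ndrg2 and Glul no longer met the detection filter, and Dbi (log2 change -0.80), Rpl37 (-0.92), Clu (-0.64) and Cst3 (-0.60) did not pass. Mt1, Aldoc, Dbi and Rpl37 did not pass either when HET replicate 1 or HET replicate 2 was left out, where Mt1 had log2 changes of -2.53 and -2.28, Aldoc of -2.12 and -1.75, Dbi of -1.87 and -1.32 and Rpl37 of -1.58 and -1.52.

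Oligodendrocyte, astrocyte and microglial markers summed highest in the same library, and the 3 precursor markers, at 11.7 and 10.1 CPM in WT against 10.3 and 5.81 in HET, did not. The 8 oligodendrocyte markers summed to 53.8 and 301 CPM in WT against 139 and 96.7 in HET, with Mbp the most abundant, all 8 above 0 and 2 found in at least 10% of members. The 8 astrocyte markers summed to 485 and 672 CPM in WT against 471 and 408 in HET, with Slc1a2 the most abundant, and without Apoe and Aldoc to 455 and 506 CPM in WT against 433 and 388 in HET. The 9 microglial markers summed to 59.5 and 100.5 CPM in WT against 58.9 and 72.3 in HET, with P2ry12 the most abundant. Apoe, an astrocyte marker, was at 20.9 and 123 CPM in WT against 31.0 and 14.8 in HET. After 110 nuclei with 3 or more oligodendrocyte-marker UMIs were left out, 23 genes passed, 3 higher and 20 lower, of which 13 were among the 29. The log2 changes of Mt1 (-2.28), Aldoc (-1.81), Dbi (-1.55) and Rpl37 (-1.40) passed there. Those of Wwc1 (0.50), Tmem232 (0.78), Trabd2b (0.36), Frmd4b (-0.60), Arhgef28 (-0.78) and Zfp618 (-0.73) did not, and Nxph2 did not meet the detection filter. The part of astrocyte and microglial transcripts was not tested.

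Lists of energy and translation genes had mostly negative changes, and this rested on WT replicate 2. Of 66 cytosolic ribosomal protein genes tested, 65 had a negative log2 change with a median of -0.79, but 2 passed, Rpl37 among them, and 64 did not, against a median of 0.00 and 0.354% called over all genes tested. All 11 mitochondrially encoded genes tested were negative with a median of -0.69, and 0 passed. Of 51 nuclear-encoded respiratory chain genes, 46 were negative with a median of -0.28, and 0 passed. The 13 mitochondrially encoded genes summed to 1383 and 5697 CPM in WT against 2614 and 1582 in HET, so WT replicate 1 was the lowest library. Without WT replicate 2 the medians were -0.10 for the ribosomal, -0.01 for the respiratory chain and 0.57 for the mitochondrially encoded genes, of which 10 of 11 were then positive. Without WT replicate 1, 55 of 73 ribosomal genes tested passed in edgeR's test at the unadjusted threshold, with a median of -1.27, beside 2.55% of all genes in that fit, and 11 of 12 mitochondrially encoded genes passed, with a median of -1.38. Without HET replicate 1 the median of the mitochondrially encoded genes was -1.13, and without HET replicate 2 it was -0.35. The 2 WT libraries thus gave opposite directions for the mitochondrially encoded genes.

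**Figure D5:**
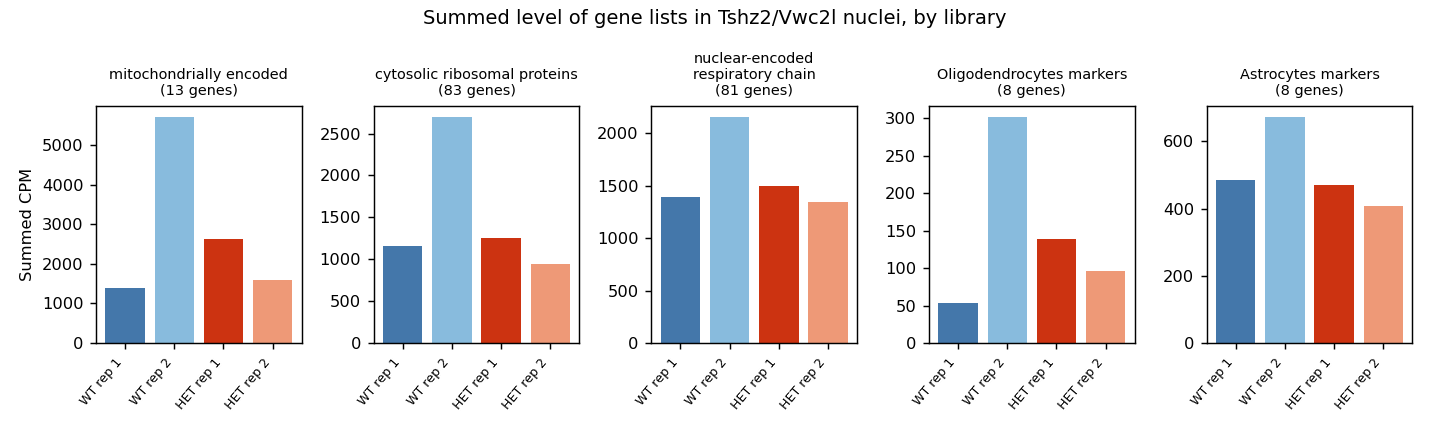
Summed CPM of 5 gene lists in each library's Tshz2/Vwc2l nuclei, 1 bar for each library, with the number of genes in each panel's title. WT replicate 2 is the tallest bar in each panel, with 5697 CPM of mitochondrially encoded and 301 CPM of oligodendrocyte-marker transcripts.

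Metal ion homeostasis genes, a theme of the study, showed 1 call, beside 0.354% called over all genes tested. Of 18 genes of this list tested, Mt1 passed and 17 did not, with a median log2 change of -0.01 (0.00 over all genes), and 8 were positive and 10 negative. Mt3, the neuronal metallothionein, was at 14.6 and 37.8 CPM in WT against 10.6 and 10.1 in HET (log2 change -1.34 ± 0.42, SE). Fth1, the ferritin heavy chain that stores iron, was at 53.5 and 179 CPM in WT against 55.7 and 32.6 in HET (-1.40 ± 0.47). Neither passed in the main setting of edgeR's quasi-likelihood test, and WT replicate 2 was again the high library. Both passed the unadjusted threshold with edgeR's likelihood-ratio test, and in the quasi-likelihood test without the detection filter or without nuclei of high doublet score. Mt3 passed in 6 of 15 settings. Without WT replicate 1, Mt3 was at -1.87 and Fth1 at -2.03. Without WT replicate 2 the log2 changes were -0.49 for Mt3 and -0.27 for Fth1, and neither passed. Mt2 was counted 3 and 15 times in WT and 4 times and once in HET, too rarely to be tested.

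Of the 5 near-projecting markers outside the rule that met the detection filter, 0 passed, beside 0.354% of all genes tested. Trhr was at 18.8 and 21.8 CPM in WT against 27.0 and 19.9 in HET (log2 change 0.20 ± 0.25, SE). Lypd1 was at 47.2 and 52.0 CPM in WT against 47.8 and 48.6 in HET (-0.04 ± 0.17). Etv1 was at 181 and 170 CPM in WT against 151 and 181 in HET (-0.08 ± 0.14), and Fezf2 and Rapgef3 had log2 changes of -0.24 ± 0.27 and 0.08 ± 0.34. A p that misses the threshold does not show equality, and these errors leave room for moderate changes. Of 21 layer and projection transcription factors tested, Rorb passed and 20 did not, beside the same 0.354%.

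Receptors, ion channels and guidance genes gave 1 call among 138 genes of 10 lists, beside 0.354% of all genes tested. Gabrg1, a GABA-A receptor subunit, was lower in HET, at 30.5 and 17.6 CPM in WT against 9.90 and 13.0 in HET (log2 change -1.06 ± 0.32, SE). Gabrg1 met the detection filter through WT alone, where it was higher. It passed without WT replicate 2 (-1.39), did not pass without HET replicate 1 (-0.89) or HET replicate 2 (-1.28), and did not meet the detection filter without WT replicate 1. The medians of the 10 lists ran from -0.06 to 0.09, beside 0.00 over all genes tested. Immediate early, integrated stress response and clock genes gave 0 calls at the unadjusted threshold among 21 genes tested, with list medians from -0.16 to 0.12.

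The last comparison asked whether the genotype difference in Tshz2/Vwc2l nuclei differed from that in layer VI corticothalamic nuclei of the same libraries, picked by Syt6 and Foxp2. Of 8823 genes tested with an interaction term in edgeR, 71 (0.805%) passed an unadjusted p under 0.01 and 0 an adjusted p under 0.05, while 354 were under an unadjusted p of 0.05 and the likelihood-ratio test gave 4 at the adjusted threshold. Unc13c, a regulator of synaptic vesicle priming, had the smallest p: it was at 140 and 161 CPM in WT against 114 and 147 in HET in Tshz2/Vwc2l nuclei, and at 19.5 and 35.0 CPM in WT against 8.62 and 8.10 in HET in corticothalamic nuclei (difference of log2 changes 1.46 ± 0.27, SE, adjusted p = 0.338). Among the 17 named genes, 5 passed the unadjusted threshold for a difference, but these genes were chosen for their small p in the same Tshz2/Vwc2l sums, so that number is raised by the choice and is no independent result. Rorb was one of them, at 90.6 and 69.4 CPM in WT against 54.5 and 53.0 in HET in corticothalamic nuclei (difference -0.64 ± 0.17, SE, adjusted p = 0.723). Without HET replicate 1 its difference was -0.42 and did not pass the unadjusted threshold.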

How the data were processed

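The authors prepared Chromium 3' libraries from nuclei of WT and Csf1r+/- brains and counted transcripts with Cell Ranger (5.0.0 in the file headers, genome build mm10 in the submitters' processing notes). The deposited values are raw UMI counts per gene and nucleus. Further libraries of the study were not analysed here. Kept nuclei had between 500 and 50000 UMIs, over 200 detected genes and a mitochondrial share below 5%. Members were chosen by marker counts, and the members and the 33 gene lists were chosen with earlier results of these data known. Named genes were the up to 12 higher and 12 lower genes of smallest p with non-overlapping libraries, the 20 with the largest ratio to other Slc17a7 nuclei, and list members.

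Counts were summed per library and tested with edgeR 4.0.16 (quasi-likelihood, TMM, genes with at least 10 counts and found in 10% of nuclei of either genotype, 10 rule genes left out) in R 4.3.3, with Benjamini-Hochberg adjustment; DESeq2 1.42.0 and 15 other settings were alternatives. Replicates were separate mice. The test was checked on simulated data. Groups came from scanpy 1.11.5 (15 components, Leiden resolution 0.3; 0.5 as a finer alternative). A group was called near-projecting-like from 3 or more near-projecting markers, each found in 10% of its nuclei and at 2-fold or more; no other name was given. A fit without 1 library leaves an arm with 1 sample, which is assumed to vary like the libraries of the other genotype. Doublet scores came from Scrublet, expecting 0.8% per 1000 nuclei, and high scores were left out only as an alternative. Libraries shared 35 to 75 barcodes pairwise, and no libraries were duplicates (chi-square per degree of freedom 2.97 to 5.43). Gene positions came from GENCODE for GRCm38. The values of some genes are not reported here.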

Additional observations from a re-analysis of the deposited data

Results flagged for a closer look

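For 5 named genes the HET against WT difference was unlike that in corticothalamic nuclei at an unadjusted p under 0.01 (edgeR interaction term, 8 library sums), and 0 of 8823 genes passed an adjusted p under 0.05. These genes were named for their small p in the same Tshz2/Vwc2l sums that enter the interaction, so the passes partly restate that choice. Lin28b had a difference of log2 changes of -0.67 (adjusted p = 0.696): it was at 120 and 113 CPM in WT against 107 and 118 in HET in corticothalamic nuclei. The difference was -0.64 for Rorb (adjusted p = 0.723), -0.80 for Adarb2 (adjusted p = 0.878) and -0.68 for Arhgef28 (adjusted p = 0.940). For Nxph2 it was 1.68 (adjusted p = 0.997), from 16.7 and 6.61 CPM in WT against 4.0 and 11 in HET in corticothalamic nuclei. In the genotype comparison by which it was named, Nxph2 met the detection filter through HET alone, so no result is drawn from it. With Tshz2-only nuclei in place of corticothalamic nuclei, the differences were -0.92 for Rorb (adjusted p = 0.00249), 1.35 for Nxph2, which passed the unadjusted threshold, and -0.57 for Lin28b, 0.03 for Adarb2 and 0.06 for Arhgef28, which did not. With nuclei thinned to 3000 UMIs, none of the 4 genes tested passed the unadjusted threshold against corticothalamic nuclei: the difference was -0.26 for Rorb, -0.56 for Lin28b, -0.76 for Adarb2 and -0.72 for Arhgef28 (adjusted p = 0.979 for each), and Nxph2 was not tested. With 1 library left out in turn and no thinning, Lin28b passed the unadjusted threshold each time, with differences from -0.73 to -0.62. Without HET replicate 1, Rorb (-0.42) and Adarb2 (-0.36) did not pass, nor did Arhgef28 (-0.63), which was at -0.54 and did not pass without WT replicate 2. Adarb2 ran to -1.30 without HET replicate 2 (adjusted p = 7.38e-06). Nxph2 was at 0.99 and did not pass without WT replicate 1, was at 2.11 without WT replicate 2 (adjusted p = 0.0146) and 2.66 without HET replicate 2 (adjusted p = 0.00689), and was not tested without HET replicate 1.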

How the results depend on the processing

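The count of 29 genes was 59 with the likelihood-ratio test, 82 without the detection filter, 59 without nuclei of high doublet score and 10 after thinning to 3000 UMIs, with 14875 genes tested without the filter and 4339 after thinning, against 8194. The cause was not tested for the other settings. Leaving out 1 replicate gave 15 to 210 genes: 210 without WT replicate 1, 144 without WT replicate 2 (87 of them higher, against 5 of 29), 19 without HET replicate 1 and 15 without HET replicate 2. The count at an adjusted p under 0.05 was 0, and 1 with the likelihood-ratio test, DESeq2 and the doublet setting, the last being Erbb4, and 0 to 61 with 1 replicate left out. The count of genes that differed from corticothalamic nuclei, 71, was 165 with Tshz2-only nuclei as comparator and 26 after thinning, and 91 to 195 with 1 replicate left out. Of these, 19 passed an adjusted p under 0.05 with Tshz2-only nuclei, and 7 to 53 with 1 replicate left out, against 0.

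The share difference of 1.08 percentage points kept its direction in 9 alternatives, from 0.12 after thinning to 1.31 without WT replicate 2. The difference in median genes, 395, reversed to -24.8 after thinning, and that in the mitochondrial share, -0.17 points, to 0.0392 without WT replicate 2 (-0.384 to 0.0392 over the replicates). With the replicate block, 22 genes passed, 16 of them among the 29. The replicate numbers share no stated litter or day, and same-numbered libraries did not deviate together (correlation -0.055 over 8194 genes). Leaving out the 110 nuclei with oligodendrocyte-marker UMIs, a setting chosen after seeing the data, gave 23 genes. Of the 17 named genes, 3 to 11 passed with 1 replicate left out, and 0 changed sign in the settings where they were tested.

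Mt2, Sla2 and Slc17a8 were found in too few nuclei to meet the detection filter and were not tested, and 2 libraries per genotype limit the precision of every change given here.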
